A study of Rattus norvegicus with 9 samples.

Results

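The lysyl oxidase family in the rat liver consists of Lox, Loxl1, Loxl2, Loxl3 and Loxl4. The 5 genes were taken by their symbols from the 17156 genes listed in the deposited tables, and all 5 passed the filter on low counts in each of the 3 comparisons. Liver RNA of 9 male Sprague-Dawley rats was sequenced, with 1 library per rat and 3 rats in each of the normal control, model and TA groups. The normal rats had been given saline. The model and TA rats had received carbon tetrachloride (CCl4), a hepatotoxin that is converted into a reactive radical in hepatocytes, by gavage at 2 ml/kg as a 50% solution in oil. CCl4 was given 2 times a week over 9 weeks, and the TA rats then had 6 weeks of tormentic acid (TA), a plant triterpene, at 3.0 mg/kg. All rats were fasted for 12 h before the liver was taken. The labels place the model and TA livers at a hepatitis stage, number the TA libraries without giving a dose, and state no age. Whole liver pieces were used, so that fewer cells of a type and less RNA per cell cannot be told apart in any value given here.

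Lysyl oxidases are copper-dependent amine oxidases that are secreted into the extracellular matrix. They turn lysine and hydroxylysine side chains of collagens and elastin into aldehydes, which then form covalent cross-links between neighbouring chains and make the fibres stiffer and harder to degrade. Lox and Loxl1 are made as pro-enzymes that are cleaved outside the cell by procollagen proteases such as Bmp1, and Loxl1 is known for its part in elastic fibres. Loxl2, Loxl3 and Loxl4 carry scavenger receptor domains in place of that pro-region, and Loxl2 is known for cross-linking of basement membrane collagen. In fibrotic liver, activated stellate cells and portal fibroblasts are known sources of these enzymes.

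The upstream sequences of Loxl1 and Loxl4 are shown because these members had the highest and the lowest log2 fold change of the family in the Model VS Normal comparison. They were chosen after those values had been seen. Each is the run of 250 bases before the annotated transcription start, from RefSeq on the rat assembly GRCr8, read 5′ to 3′ on the strand of the gene. Loxl1 lies on the minus strand at chr8:67612225-67612474, and the capitals mark the letters CAGACA (a Smad box) and the reverse complement of GGAATG (the letters bound by TEAD factors). Loxl4 lies on the minus strand at chr1:251365578-251365827, and the capitals mark GGGCGG (a GC box of the kind bound by SP1).
Loxl1: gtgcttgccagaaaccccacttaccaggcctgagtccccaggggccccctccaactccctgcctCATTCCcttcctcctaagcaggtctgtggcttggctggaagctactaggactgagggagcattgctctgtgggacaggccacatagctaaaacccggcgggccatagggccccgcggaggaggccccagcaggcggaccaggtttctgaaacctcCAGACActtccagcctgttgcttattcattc
Loxl4: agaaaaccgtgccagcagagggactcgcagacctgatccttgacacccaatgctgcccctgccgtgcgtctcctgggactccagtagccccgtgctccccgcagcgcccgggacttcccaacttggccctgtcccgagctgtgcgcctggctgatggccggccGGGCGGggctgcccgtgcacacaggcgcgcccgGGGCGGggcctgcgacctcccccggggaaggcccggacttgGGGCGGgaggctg
The GGAATG letters of Loxl1 were 186 to 181 bases before the start and CAGACA 31 to 26 bases before it. The 3 GC boxes of Loxl4 began 87, 54 and 13 bases before the start. On either strand, GGAATG was found in 12.1% of 33469 rat promoters of the same length, CAGACA in 17.2% and GGGCGG in 30.5%. No TATAAA was found in either window, and these letters stood in 12.9% of all promoters. Of the 5 members, 3 had a promoter in the table. Loxl3, the third of these, held GGAATG 50 to 45 bases before its start and a hypoxia response core (ACGTG or GCGTG, found in 36.7% of promoters) 129 to 125 bases before it. TGANTCA, the AP-1 letters, stood in none of the 3 and in 6.34% of all promoters. Lox and Loxl2 are named only.

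Read totals ran from 13156735 to 18090405 per liver. The first model liver stood apart from the other 8. Its 50 most abundant genes took 27.9% of the reads against 40.4% to 45.7% in the others, and the summed level of 6 hepatocyte markers was 26484 CPM (reads per 1000000 counted reads) against 73576 to 148060. All 6 hepatocyte markers were detected in every liver. CPM were scaled by TMM over the 9 livers, so that a level depends on the other RNA in the library. Where leaving it out moved a member's fold change or a list's count or median by over 1.5 times, or ended a call, the value without it stands beside the main one.

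In normal liver, Lox was the most abundant member per transcript length, and Loxl1 took that place in the 3 model livers and in 2 of the 3 TA livers, the second TA liver having Loxl4 first. On the FPKM scale (reads scaled by transcript length and library size, as deposited), the means in the normal group were 12.9 ± 7.5 (SD, n = 3) for Lox, 3.47 ± 0.734 for Loxl4, 0.880 ± 0.215 for Loxl1, 0.557 ± 0.433 for Loxl3 and 0.365 ± 0.178 for Loxl2. Lox was above Loxl4 and Loxl4 above Loxl1 without overlap, while Loxl1, Loxl3 and Loxl2 overlapped with their neighbours in the order. In the model group the FPKM means were 62.8 ± 70.4 for Loxl1, 22.0 ± 21.6 for Lox, 6.09 ± 7.74 for Loxl2, 2.21 ± 1.98 for Loxl3 and 2.06 ± 0.788 for Loxl4. All neighbours in that order overlapped between livers, but within each of the 3 model livers Loxl1 was above Lox and Lox above Loxl2. In the TA group the FPKM means were 6.93 ± 3.02 for Loxl1, 3.65 ± 3.46 for Loxl4, 3.11 ± 0.663 for Lox, 1.80 ± 0.978 for Loxl2 and 0.678 ± 0.161 for Loxl3. Here only Loxl2 and Loxl3 were neighbours without overlap. The order is a description, with no test.

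By the share of each member in the summed FPKM of the family, Lox was largest in the normal livers and Loxl1 in the model livers. The shares within a liver are tied to one another, so that a smaller share of Lox does not by itself mean less Lox RNA. Lox took 80.7%, 74.1% and 42.6% of the family sum in the normal livers, 22.1% to 27.2% in the model livers and 15.0% to 27.1% in the TA livers. Loxl1 took 3.11% to 8.78% in the normal livers, 57.4% to 68.1% in the model livers and 29.96% to 51.0% in the TA livers. Neither share of the normal livers overlapped with those of the CCl4 groups. Within a liver, the FPKM of Lox was 17.3, 23.8 and 4.85 times that of Loxl1 in the normal livers. It was 0.325, 0.439 and 0.421 times in the model livers and 0.372, 0.501 and 0.556 times in the TA livers, so that the model and TA livers overlapped. This ratio within a library needs no scaling between libraries, and the pair was picked from 10 pairs of members after the values were seen. Loxl4 took 11.4% to 36.6% of the family sum in the normal livers, 0.547% to 8.11% in the model livers and 9.57% to 42.7% in the TA livers. The family sum itself was 23.1, 21.0 and 10.3 FPKM in the normal livers, 211, 41.7 and 32.3 in the model livers and 20.4, 17.7 and 10.4 in the TA livers. These FPKM sums hold no TMM scaling. In CPM after TMM, without correction for length, the sum was 121, 106 and 47.3 in the normal livers. It was 402, 121 and 100 in the model livers and 64.4, 61.7 and 37.7 in the TA livers. On that scale the normal and model livers overlapped.

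**Figure D1:**
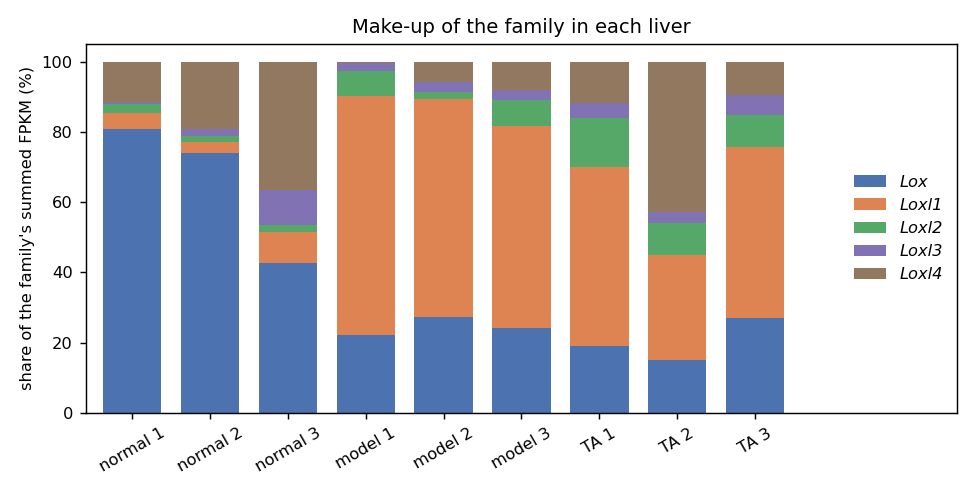
Share of each lysyl oxidase in the summed FPKM of the 5 members, in percent, with 1 stacked bar per liver. Lox fills 42.6% to 80.7% of the bar in the normal livers, and Loxl1 fills 57.4% to 68.1% in the model livers and 29.96% to 51.0% in the TA livers.

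The Model VS Normal comparison addresses the effect of CCl4. Of the 5 members, Loxl1 rose at an adjusted p under 0.05 (edgeR's quasi-likelihood test with Benjamini-Hochberg adjustment over all 12730 genes tested), a rule that 7.87% of all genes passed. The criterion of the study asks for a log2 fold change beyond 1 together with p under 0.05 before adjustment. By it Loxl1 and Loxl2 were higher and Loxl4 was lower, which makes 3 of 5 members against 22.1% of all genes (16.6% higher and 5.55% lower). The same 3 members did not overlap between the groups, as did 38.2% of all genes (20.9% higher and 17.3% lower). Lox and Loxl3 passed neither rule and overlapped.

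Loxl1 was low in normal liver, though above Loxl3 and Loxl2 in mean FPKM, and showed the largest difference of the family. It had 43, 33 and 37 reads (3.57, 2.12 and 3.11 CPM) in the normal livers and 5303, 951 and 696 reads (238, 62.6 and 49.2 CPM) in the model livers. The lowest model liver was 13.8 times above the highest normal liver. This is a log2 fold change of 5.32 with an SE of 0.70 and an adjusted p of 0.0116 (edgeR). It was 4.24 without the first model liver. The adjusted p was 0.0539, 0.0855 and 0.0916 when normal liver 1, 2 or 3 was left out, so that the call was lost each time. The log2 fold change was then 5.47, 5.11 and 5.33 in the same order. Calls over all genes went from 1002 to 51, 0 and 0 in these fits, so that the loss was not particular to Loxl1.

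Loxl2 had the lowest mean FPKM of the family in normal liver, with 18, 13 and 7 reads (1.49, 0.837 and 0.588 CPM). In normal liver 1, Loxl3 was lower, with 8 reads (0.664 CPM). The model livers had 444, 25 and 74 reads (19.9, 1.65 and 5.23 CPM). The groups did not overlap, but the second model liver was only 1.10 times above the highest normal liver. A log2 fold change of 3.21 was found with an SE of 0.90 and an unadjusted p of 0.00738, and the adjusted p of 0.0659 missed the threshold (edgeR). Without the first model liver the log2 fold change was 1.79, which is more than 1.5 times smaller.

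Lox, the first described enzyme of the family, spread widely in both groups. Its levels were 106, 87.2 and 25.9 CPM in the normal livers (1278, 1354 and 309 reads) and 133, 47.3 and 35.7 CPM in the model livers (2966, 719 and 504 reads). The third normal liver was lower than every model liver, and the means were 73.1 ± 41.9 and 72.03 ± 53.2 CPM (SD, n = 3). In the fit, the log2 fold change was -0.01 with an SE of 0.62 and an adjusted p of 0.990 (edgeR). Its sign turned with the scaling: with library totals alone, which moved the median of all genes to 0.65, it was 0.78. It was -0.84 without the first model liver.

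Loxl3 had 8, 27 and 48 reads (0.664, 1.74 and 4.03 CPM) in the normal livers and 189, 53 and 38 reads (8.48, 3.49 and 2.69 CPM) in the model livers. The third normal liver was above model livers 2 and 3. Its log2 fold change of 1.20 had an SE of 0.70 and an adjusted p of 0.292 (edgeR), and it was 0.52 without the first model liver. In RefSeq, Loxl3 overlaps the protein-coding gene Htra2 and Lox overlaps the pseudogene Rps3a-ps12. Whether the reads were counted by strand is not given in the sources used here, so that reads shared with these genes cannot be told apart.

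Loxl4 was the member with lower levels in every model liver. It was at 9.22, 13.8 and 13.7 CPM in the normal livers (111, 214 and 163 reads) and at 2.02, 6.12 and 7.36 CPM in the model livers (45, 93 and 104 reads). The lowest normal liver was 1.25 times above the highest model liver. Loxl4 had a log2 fold change of -1.25 with an SE of 0.47 and an unadjusted p of 0.0304, and the adjusted p was 0.131 (edgeR). It was -0.88 without the first model liver. The sum of the 6 hepatocyte markers was also lower in every model liver, at 26484 to 94543 CPM against 110970 to 137480 CPM in the normal livers and 85972 to 148060 CPM in the TA livers. The first model liver was lowest in both, and the part of the hepatocyte markers in the Loxl4 difference was not tested.

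**Figure D2:**
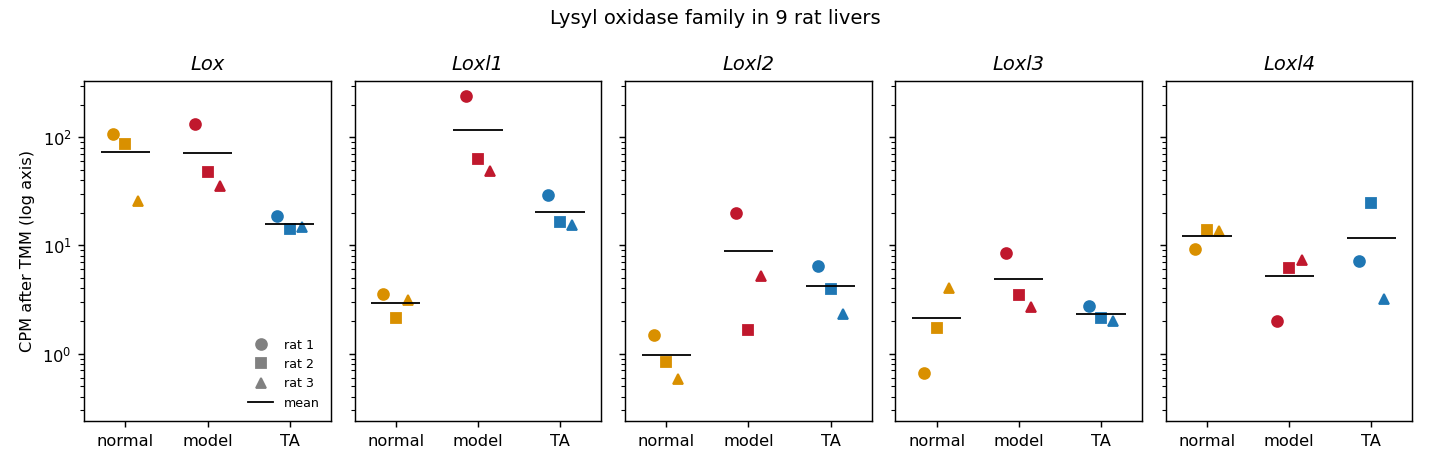
Level of each lysyl oxidase in CPM on a log axis, with 1 point per liver (the marker shape gives the rat number within its group) and the mean of each group as a line. The Loxl1 points of the model livers lie at 49.2 to 238 CPM, above the normal livers at 2.12 to 3.57 CPM, and the Lox points of the TA livers lie at 14.2 to 18.7 CPM, below both other groups.

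The TA VS Model comparison addresses the effect of TA on CCl4 livers. None of the 5 members passed an adjusted p under 0.05 with edgeR, and neither did any of the 12781 genes tested (0%), the smallest adjusted p being 0.23. Before adjustment, Lox and Loxl1 had p under 0.05, as did 15.6% of all genes. DESeq2 gave both an adjusted p under 0.05, as it did 4.23% of all genes. By the criterion of the study Lox and Loxl1 were lower, which makes 2 of 5 members against 10.2% of all genes that were lower by it. The same 2 members lay below the model group without overlap, as did 12.6% of all genes.

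Lox was 18.7, 14.2 and 14.8 CPM in the TA livers (263, 168 and 198 reads), and its lowest model liver was 1.90 times above the highest TA liver. The log2 fold change was -2.18 with an SE of 0.50, an unadjusted p of 0.00257 and an adjusted p of 0.237 (edgeR). The value was -1.37 without the first model liver. The TA livers differed little among themselves, with a ratio of the highest to the lowest of 1.32 against 3.73 in the model group.

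Loxl1 was 29.3, 16.5 and 15.4 CPM in the TA livers (411, 195 and 207 reads). All 3 were below the lowest model liver, by 1.68 times at the closest. The log2 fold change was -2.52 with an SE of 0.64, an unadjusted p of 0.00457 and an adjusted p of 0.246 (edgeR). Without the first model liver it was -1.44, which is more than 1.5 times smaller.

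The remaining members overlapped between the TA and model groups. Loxl2 was 6.48, 3.98 and 2.31 CPM in the TA livers (91, 47 and 31 reads), all above the second model liver and below the first. Its log2 fold change was -1.08 with an SE of 0.82 and an adjusted p of 0.519 (edgeR), and it was 0.32 without the first model liver. Loxl3 was 2.78, 2.11 and 2.01 CPM (39, 25 and 27 reads), with a log2 fold change of -1.09, an SE of 0.52 and an adjusted p of 0.344 (edgeR), and -0.41 without the first model liver. Its highest TA liver lay just above its lowest model liver. Loxl4 was 7.12, 24.9 and 3.21 CPM (100, 294 and 43 reads) and had the widest spread of the TA group. Its log2 fold change of 1.19 (SE 0.77, adjusted p of 0.453, edgeR) rested on the second TA liver and was 0.02 without it.

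**Figure D3:**
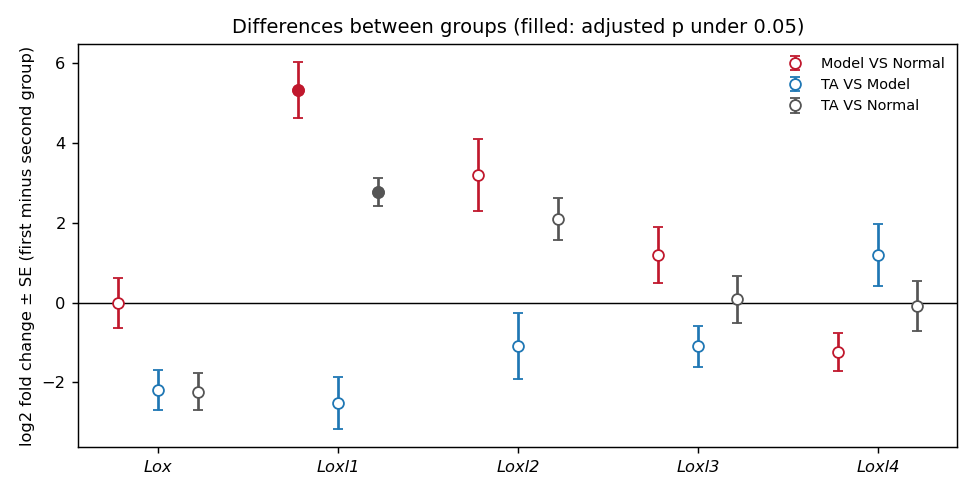
Log2 fold change of each lysyl oxidase in the 3 comparisons, first group minus second group, with bars of 1 SE. Filled points have an adjusted p under 0.05, which applies to Loxl1 at 5.32 (Model VS Normal) and 2.77 (TA VS Normal).

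The TA VS Normal comparison addresses how livers after CCl4 and TA differed from normal liver. It shares its libraries with the other comparisons, so that the values are given side by side. Loxl1 was the member with an adjusted p under 0.05 (edgeR, 12179 genes tested), a rule that 0.263% of all genes passed. With the replicate number as a block, Lox and Loxl2 passed too, which makes 3 of 5 members against 1.67% of all genes. Nothing states that same-numbered rats were paired, and the block is given because of how these same livers deviated. By the criterion of the study these 3 members differed without the block, 2 higher and 1 lower, against 5.25% of all genes (4.24% higher and 1.02% lower). They did not overlap between the groups, as did 15.1% of all genes (8.26% higher and 6.81% lower).

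Loxl1 stayed above normal in all 3 TA livers, and the lowest TA liver was 4.32 times above the highest normal liver. The log2 fold change was 2.77 with an SE of 0.35 and an adjusted p of 0.0220 (edgeR), and 2.74 with an adjusted p of 0.00328 under the block. The call without the block was lost when the first TA liver was left out (adjusted p = 0.0896) and when normal liver 1, 2 or 3 was left out (0.0872, 0.0995 and 0.0846). Leaving out each library gave Loxl1 a log2 fold change of 2.42 to 2.94. Of all genes, 1 to 61 then passed, against 32 with all livers. Loxl2 was 1.55 times above the highest normal liver in its lowest TA liver. Its log2 fold change was 2.10 with an SE of 0.54 and an adjusted p of 0.190 (edgeR), against 2.08 and 0.0394 under the block.

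Lox was lower in the TA livers than in normal liver. Its mean was 15.9 ± 2.46 CPM against 73.1 ± 41.9 CPM, and the lowest normal liver was 1.39 times above the highest TA liver. The log2 fold change was -2.23 with an SE of 0.47 and an adjusted p of 0.115 (edgeR), against -2.03 and 0.0480 under the block. Loxl3 and Loxl4 overlapped with normal, at log2 fold changes of 0.08 and -0.09 and adjusted p of 0.993 and 0.992 (edgeR). The SE was 0.60 for Loxl3 and 0.63 for Loxl4, so that differences of that size were not detectable here.

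Col1a1 and Col3a1, which encode the main chains of the fibrillar collagens of scar tissue, were taken as reference substrates. Col1a1 was 18.2, 10.9 and 7.30 CPM in the normal livers, 4442, 232 and 243 in the model livers and 176, 94.0 and 83.7 in the TA livers. By edgeR, Model VS Normal gave a log2 fold change of 7.08 (SE 1.43, adjusted p = 0.0309), TA VS Model -3.80 (SE 1.24, adjusted p = 0.264) and TA VS Normal 3.25 (SE 0.42, adjusted p = 0.0236). Leaving out the first model liver gave Col1a1 4.27 (Model VS Normal) and -0.999 (TA VS Model). Col3a1 was 205, 135 and 143 CPM in the normal livers, 6901, 744 and 1022 in the model livers and 831, 565 and 433 in the TA livers. Here the log2 fold changes by edgeR were 4.17 for Model VS Normal (SE 0.97, adjusted p = 0.0420), -2.25 for TA VS Model (SE 0.92, adjusted p = 0.306) and 1.89 for TA VS Normal (SE 0.30, adjusted p = 0.0522). For Col3a1 the values without that liver were 2.44 and -0.52.

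The ratio of Lox to these substrates within each liver was lower in both CCl4 groups. In Model VS Normal the substrates rose by log2 fold changes of 7.08 and 4.17 while Lox was at -0.01 (edgeR). The lower ratio in the model livers thus restates the rise of the substrates and does not mean less Lox RNA. The log2 ratio of Lox to Col1a1 was 2.44 ± 0.59 (SD, n = 3) in normal livers, -3.37 ± 1.48 in model livers and -2.81 ± 0.37 in TA livers. Its log2 ratio to Col3a1 was -1.35 ± 0.98, -4.83 ± 0.86 and -5.21 ± 0.31. Neither CCl4 group overlapped with the normal group, at an exact permutation p of 0.1 (two-sided), the smallest that 3 against 3 can give. Loxl1 had log2 ratios to Col1a1 of -1.93 ± 0.64, -2.80 ± 1.25 and -2.50 ± 0.08 in the normal, model and TA groups. The normal and model groups overlapped (exact permutation p = 0.5), while the TA group lay below the normal group by 0.57 on the log2 scale without overlap (exact permutation p = 0.1). Relative to Col3a1, Loxl1 stood at -4.27 ± 0.65 in model livers, above the -5.72 ± 0.23 of normal livers, without overlap (exact permutation p = 0.1). The TA livers, at -4.90 ± 0.16, also lay above the normal livers there, by 0.82 without overlap (exact permutation p = 0.1). The direction between TA and normal livers thus depended on the substrate. The log2 ratio of Loxl4 to Col1a1 was 0.08 ± 0.96 in normal livers, -7.08 ± 3.40 in model livers and -3.72 ± 1.57 in TA livers.

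Between the TA and model groups, the log2 ratios of Lox and Loxl1 to either substrate overlapped. The differences, TA minus model, were 0.56 and -0.37 for Lox and 0.30 and -0.64 for Loxl1 (to Col1a1 and Col3a1, exact permutation p from 0.3 to 1.0). The ratio of Loxl2 was higher in the TA group for both substrates, by 1.99 to Col1a1 and 1.05 to Col3a1, without overlap (exact permutation p = 0.1 each). The first model liver had the lowest log2 ratio to Col1a1 of all 9 livers for each of the 5 members, at -5.06 for Lox, -4.22 for Loxl1, -7.79 for Loxl2, -9.01 for Loxl3 and -11.01 for Loxl4. Without it the TA minus model differences to Col1a1 were -0.28 for Lox, -0.41 for Loxl1 and 1.48 for Loxl2. These ratios hold no correction for transcript length, which cancels in a difference between groups.

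**Figure D4:**
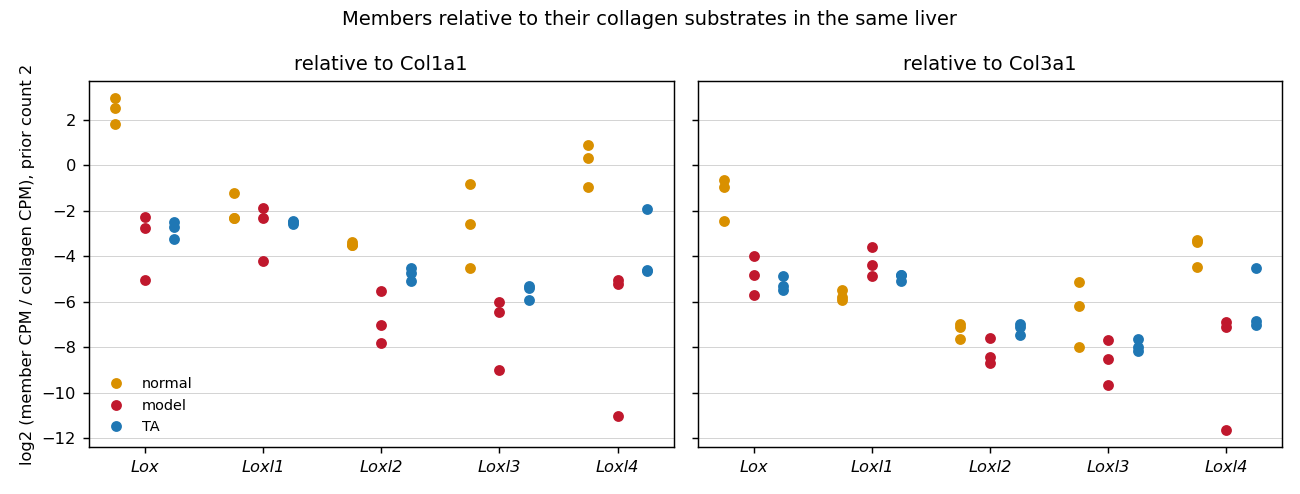
Log2 ratio of each lysyl oxidase to Col1a1 and to Col3a1 within each liver, with 1 point per liver. The Lox points lie between 1.81 and 2.98 relative to Col1a1 in the normal livers and between -5.06 and -2.29 in the model and TA livers.

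Around the enzymes, 88 genes in 10 lists were followed, from substrates to inducers. In Model VS Normal, calls among the substrates and the elastic fibre genes were all towards higher levels. At an adjusted p under 0.05, 3 of 8 fibrillar collagen genes tested, 3 of 4 basement membrane collagen genes and 10 of 13 elastic fibre genes rose and none fell, where 6.86% of all genes tested rose. The median log2 fold changes of these lists were 3.70, 2.82 and 2.98, beside 0.02 for all genes tested. Col4a1 and Col4a2, the main chains of basement membrane collagen, rose by a log2 fold change of 4.29 and 4.21 (adjusted p = 0.0394 and 0.0415, edgeR), or 2.49 and 2.31 without the first model liver. Col11a1, a minor fibrillar chain, had 1, 0 and 0 reads in the normal livers, 229, 94 and 41 in the model livers and 26, 16 and 9 in the TA livers. Without the first model liver, 4 of 8 fibrillar, 3 of 5 basement membrane and 8 of 13 elastic fibre genes rose, where 5.75% of all genes did, and the list medians were 1.94, 1.52 and 2.51.

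Elastin (Eln), the other main substrate, was 12.4, 7.47 and 11.7 CPM in the normal livers, 307, 122 and 102 in the model livers and 71.9, 46.4 and 66.1 in the TA livers. The 3 groups did not overlap with each other. Eln was at a log2 fold change of 4.08 in Model VS Normal (SE 0.51, adjusted p = 0.0104), -1.52 for TA VS Model (SE 0.47, adjusted p = 0.260) and 2.52 for TA VS Normal (SE 0.27, adjusted p = 0.0163) by edgeR. Without the first model liver the TA VS Model value was -0.85. Fbln5, which tethers Loxl1 to elastic fibres, rose by 2.61 in Model VS Normal (SE 0.39, adjusted p = 0.0140, edgeR), and Fbln1 and Mfap2 rose by 4.74 and 4.12 (adjusted p = 0.0219 and 0.0417, edgeR). The Mfap2 call was lost without the first model liver (2.73, adjusted p = 0.0543).

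The genes that prepare collagens and pro-enzymes did not all differ in one direction. Bmp1, the protease that releases active Lox and trims procollagen, was 158, 172 and 301 CPM in the normal livers, 112, 101 and 109 in the model livers and 126, 129 and 222 in the TA livers. Bmp1 was at -0.97 between model and normal livers (log2 fold change, SE 0.33, adjusted p = 0.106, edgeR), which did not overlap. Pcolce, an enhancer of that cleavage, and Adamts2, the procollagen N-protease, rose by 3.62 and 4.04 (adjusted p = 0.0308 and 0.0104, edgeR), so that 2 of 4 genes of their list rose. Of 9 collagen hydroxylases and chaperones tested, 2 rose and the list median was 0.11, or -0.06 without the first model liver, with 2 rising. These were Plod2, which hydroxylates the telopeptide lysines that lysyl oxidases act on, and its partner Fkbp10, at 4.91 and 4.62 (adjusted p = 0.0135 and 0.0345, edgeR), or 3.85 and 2.76 without that liver.

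Of the matrix proteins known to bind lysyl oxidases, 3 of 5 tested rose in Model VS Normal. Periostin (Postn), which brings Bmp1 and Lox together, had 2, 3 and 0 reads in the normal livers, 6549, 64 and 46 in the model livers and 9, 2 and 2 in the TA livers. Thbs2 rose by 3.93 (adjusted p = 0.0325, edgeR), or 2.49 without the first model liver, while fibronectin (Fn1), a scaffold for pro-Lox processing, was 824 to 1410 CPM in the normal livers and 864 to 988 CPM in the model livers (adjusted p = 0.701, edgeR). None of 4 other cross-linking enzymes tested passed the adjusted threshold with edgeR. By the criterion of the study 2 were higher, as were 16.6% of all genes. Without the first model liver 1 rose at the adjusted threshold, as did 5.75% of all genes. In copper supply, 1 of 7 genes fell, where 1.01% of all genes did, and none rose, with a list median of -0.48. The one that fell was Slc31a1, the copper importer of the cell surface, at -1.15 (SE 0.27, adjusted p = 0.0418, edgeR), and this call was lost without the first model liver (-1.11, adjusted p = 0.0625). Without that liver 1 of 7 genes again fell, in this case Atox1 (-1.13, adjusted p = 0.0416, edgeR). With all livers Atox1 was at -1.32 (adjusted p = 0.0546, edgeR). Atp7a, which loads copper onto secreted enzymes, was at 1.47 (SE 0.41, adjusted p = 0.0647, edgeR).

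Of 10 inducers of lysyl oxidase genes, 3 rose in Model VS Normal, and the list median was 1.38. Without the first model liver the count was again 3 and the median 0.79. Tgfb2 and Tgfb3 rose by 2.93 and 3.77 (adjusted p = 0.0215 and 0.0104, edgeR), and Tgfb1, the main profibrotic cytokine, was at 2.16 (SE 0.57, adjusted p = 0.0572), or 1.21 without that liver. Of 7 other amine oxidases tested, 2 rose and the median was 0.28, or 0.18 without that liver. Both were copper enzymes, Aoc1 (diamine oxidase) at 6.60 and Aoc3 (vascular adhesion protein) at 2.73 (adjusted p = 0.0120 and 0.0122, edgeR).

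In TA VS Model, none of these genes passed an adjusted p under 0.05 with edgeR, as in the whole table (0%). By the criterion of the study, 5 of 8 fibrillar collagen genes, 2 of 5 basement membrane collagen genes, 5 of 13 elastic fibre genes and 5 of 6 matrix partners were lower, against 10.2% of all genes. Without the first model liver these counts were 1 of 8, 0 of 5, 1 of 13 and 1 of 6, and the share of all genes was 4.96%. Of the other lists, 2 of 4 proteases, 3 of 9 hydroxylases and chaperones and 2 of 4 other cross-linking enzymes were lower by that criterion. So were 4 of 10 inducers and 1 of 7 other amine oxidases, and 1 of 7 copper supply genes was higher. In either direction, 1571 of the 12781 genes tested passed that criterion. With that liver left out, the counts were 0, 1, 1, 1, 1 and 0. In TA VS Normal, 1 of 7 fibrillar collagen genes, 3 of 13 elastic fibre genes, 1 of 4 proteases and 1 of 10 inducers were above normal at an adjusted p under 0.05, where 0.23% of all genes were higher. No gene of the other lists passed there with edgeR. By the criterion of the study, 2 of 5 basement membrane collagens, 2 of 9 hydroxylases and chaperones and 4 of 5 matrix partners were higher. So were 2 of 4 other cross-linking enzymes, 0 of 7 copper supply genes and 2 of 7 other amine oxidases, against 4.24% of all genes. Tgfb3 and Adamts2 were among those past the adjusted threshold, at 2.74 and 2.77 (adjusted p = 0.0255 and 0.0218, edgeR).

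**Figure D5:**
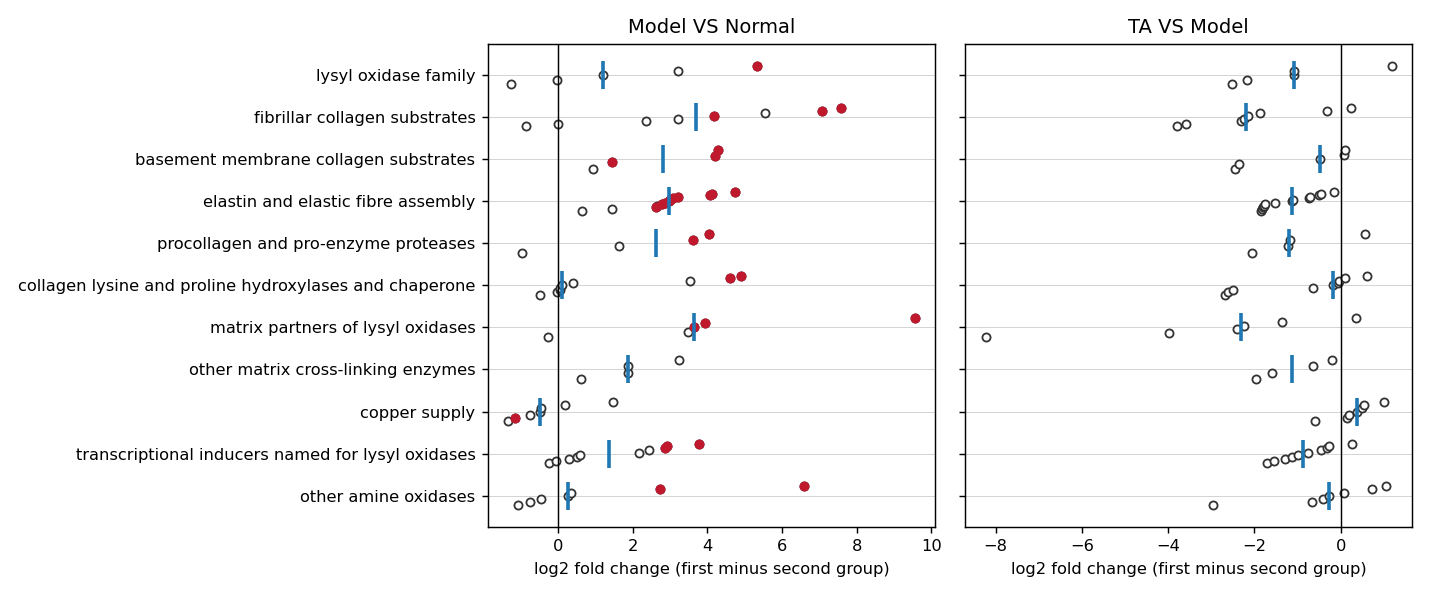
Log2 fold change of the 5 lysyl oxidases and of every tested gene of the 10 lists for the comparisons Model VS Normal and TA VS Model, with filled points at an adjusted p under 0.05 and a vertical bar at the median of each row. The medians of the fibrillar collagen, basement membrane collagen and elastic fibre lists are 3.70, 2.82 and 2.98 in Model VS Normal, and that of copper supply is -0.48.

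Markers of other cell types were summed in the same livers, and only some of the sums differed between groups without overlap. The summed level of 10 stellate cell and myofibroblast markers was 96.5 to 119 CPM in the normal livers, 303 to 1481 in the model livers and 197 to 267 in the TA livers, with Lum at 0 in at least 1 liver. That of 5 portal fibroblast markers was 47.0 to 140 CPM, 148 to 258 and 80.2 to 89.8 in the same order, with Thy1 and Gli1 at 0 in at least 1 liver. The sum of 6 cholangiocyte markers was 17.7 to 30.6, 113 to 2008 and 33.8 to 51.6 CPM, with Krt7 at 0 in at least 1 liver. That of 9 macrophage markers was 287 to 363, 238 to 1911 and 316 to 670 CPM, with Trem2 at 0 in at least 1 liver. The first model liver had the highest of each of these sums. Endothelial markers summed to 179 to 230, 184 to 361 and 216 to 278 CPM, lymphocyte markers to 22.1 to 32.0, 41.8 to 108 and 23.6 to 48.3 CPM, and adipocyte markers to 88.3 to 100.4, 57.5 to 424 and 74.1 to 108 CPM, with Adipoq at 0 in at least 1 liver. Mesothelial markers summed to 0.839 to 2.49, 25.1 to 83.6 and 4.65 to 12.3 CPM, with Upk3b, Lrrn4 and Krt14 at 0 in at least 1 liver. Skeletal muscle and pancreas markers summed to at most 2.76 and 1.42 CPM in any liver. Of the marker genes tested in Model VS Normal, 5 of 10 stellate, 1 of 4 portal fibroblast, 5 of 6 cholangiocyte, 2 of 9 macrophage, 2 of 2 mesothelial and 1 of 2 adipocyte markers rose at an adjusted p under 0.05, where 6.86% of all genes did. None of the 6 hepatocyte markers passed that test. Markers within a list did not all differ in one direction. By the criterion of the study, 5 of 9 macrophage, 3 of 7 endothelial and 1 of 2 adipocyte markers were higher, against 16.6% of all genes. In each of these lists 1 marker was lower by it, against 5.55% of all genes. These were Marco, Kdr and Cidec, at log2 fold changes of -2.17, -1.01 and -1.47 (edgeR). The part of these cells in the levels of the lysyl oxidases was not tested.

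The genes whose pattern over the 9 livers was most like that of a member were found by the root mean square difference of centred log2 CPM over 12997 genes. For Loxl1 they were Plod2 (0.286), Col11a1 (0.396) and Htra3 (0.429). For Loxl2 they were Adgra2 (0.439), Fstl1 (0.484) and Col6a1 (0.494). The values were larger for Lox, with Cacna2d2 (0.474), Gtse1 (0.486) and Unc5a (0.564). Loxl3 was nearest to Dpep2 (0.230), Piezo2 (0.318) and P2ry12 (0.323), and Loxl4 to Ttc21a (0.256), Agxt2 (0.333) and Ddc (0.378). Between Lox and Loxl1 the difference was 2.35, and between Loxl1 and Loxl4 it was 2.88. The measure is a description over livers that share group and depth. It also depends on the prior count of 2 where reads are few. Log2 CPM was -2.86 for Col11a1 in normal livers 2 and 3, which had 0 reads, and for Unc5a in TA liver 3.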

How the data were processed

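The authors sequenced poly(A) libraries of 9 rat livers, 3 per group as the labels give them. Reads were trimmed with Trimmomatic and Cutadapt, mapped with STAR and counted with HTSeq-count, per the study's methods. The methods name a human genome build and the labels mm9, while the symbols in the tables are rat symbols. The deposited counts are raw reads per gene and entered every test. The authors also deposited FPKM values, used here for levels per transcript length, and a normalized signal (counts divided by DESeq2 size factors), used in no result. Columns of the authors' log2 fold changes and p-values were not used. The tables list 16938 and 16948 genes, 16730 in both.

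Computed here, with R 4.3.3: edgeR 4.0.16 quasi-likelihood test in its default form, TMM scaling, its filter on low counts, only the libraries of the groups compared, and Benjamini-Hochberg adjustment over all genes. SE values were obtained by dividing the fold change (log2) by the root of F. CPM in the text use TMM factors over all 9 livers, and log2 CPM a prior count of 2. Exact permutation tests were two-sided. The edgeR fit was tested on simulated data. In TA VS Normal, same-numbered livers, whose numbers come from the labels, deviated together (r = 0.258, 0.426 and 0.501), so a fit with the number as a block is given beside it. Nothing says more of the rats than that they were separate samples, so p-values measure the spread between these samples.

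The members, gene lists and marker lists were chosen with earlier results of these data known. Of 160 listed genes, 144 were matched by symbol and 2 by synonym. Named were the members, Col1a1, Col3a1, Bmp1, Eln, Fbln5, Fn1, Atp7a and Tgfb1, and the called genes with the largest and second largest change in Model VS Normal of each list. Atox1 was named for its call without the first model liver. The alternatives were DESeq2 1.42.0, its size factors in edgeR, library totals, no filter, the newer quasi-likelihood form, limma voom (limma 3.58.1), all 9 libraries in 1 fit, the block, and each library left out. List counts, medians and listed genes' fold changes without the first model liver were added after seeing the data. Promoters came from RefSeq GRCr8. Protein sequences were not used here.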

Additional observations from a re-analysis of the deposited data

How the results depend on the processing

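In Model VS Normal, 1 of 5 members had an adjusted p under 0.05 with edgeR. That number was 2 with DESeq2, with library totals alone, without the filter, with all 9 libraries in 1 fit and with the replicate block, Loxl2 being the second, and it ran from 0 to 2 when each library was left out (0 without normal liver 1, 2 or 3). In TA VS Model it was 0, but 2 with DESeq2 and 1 with limma voom, and 0 whichever library was left out. In TA VS Normal it was 1, but 3 with DESeq2, 2 with limma voom, 0 with all 9 libraries in 1 fit and 3 with the replicate block. Leaving out each library gave 0 to 1 there (0 without the first TA liver or any 1 of the normal livers). The same-numbered livers did not deviate together in Model VS Normal (r = 0.21, -0.0567 and -0.0519) or TA VS Model (r = 0.218, -0.0355 and 0.00655), and the replicate block called 0 members in TA VS Model. By the criterion of the study, leaving out each library gave 2 to 3 members in Model VS Normal, 2 to 3 in TA VS Model and 3 to 4 in TA VS Normal. The genes of all that passed it then ran from 2061 to 3917, 792 to 2792 and 525 to 918 in the same order. The number of all genes with an adjusted p under 0.05 in Model VS Normal, 1002, ran from 0 to 2537 when a library was left out and was 2654 with DESeq2 and 3433 with limma voom. It was 1980 with library totals alone, 1757 with all 9 libraries in 1 fit, 1216 with the replicate block and 1215 without the filter. In TA VS Model it was 0, against 541 with DESeq2 and 169 with limma voom, and 0 to 1 when a library was left out. In TA VS Normal it was 32, against 203 with the replicate block and 360 with DESeq2, and 1 to 61 when a library was left out. Signs turned for Lox in Model VS Normal (0.78 with library totals, -0.84 to 0.33 leaving out each library), Loxl2 in TA VS Model (0.97 with limma voom, -1.56 to 0.32), Loxl3 in TA VS Normal (-0.35 to 0.88) and Loxl4 in TA VS Normal (0.067 with library totals, -1.28 to 0.36). Among log2 ratios to the collagens, they turned in TA VS Normal for Loxl2 to Col3a1 (-0.14 to 0.20, below 0 without normal liver 3 or TA liver 1) and in TA VS Model for Lox to Col1a1 (-0.28 to 1.10) and Loxl1 to Col1a1 (-0.41 to 0.76), both below 0 without model liver 1, and for Lox to Col3a1 (-0.80 to 0.059, above 0 without model liver 2). With TMM CPM per length in place of FPKM, Loxl3 and Loxl4 changed places in the model group (ranks 5 and 4). Library totals alone moved the median log2 fold change of all genes to 0.65, -0.48 and 0.18 in the 3 comparisons. The cause of these changes was not tested. Loxl2 and Loxl3 had 7 to 48 reads in each normal liver, so that depth limits their values there.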
